A study of Homo sapiens with 4 samples.

Results

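The 10 genes described here build the machinery that copies DNA: MCM2, MCM3, MCM4, MCM7, MCM10, CDC45, GINS2, PCNA, RFC4 and LIG1. They were examined in CUT&Tag libraries of 22RV1, an established human prostate carcinoma cell line, and are 10 of the 20033 protein-coding genes of the RefSeq table on GRCh38. There were 4 libraries with 1 library per group: 22RV1 cells given PD0332991 (palbociclib), an inhibitor of the cell cycle kinases CDK4 and CDK6; the control of that inhibitor; cells given an siRNA against RB; and the control of that siRNA, called control siRNA here. All 4 groups share the same cell line and medium, no group has a second library, and no label gives a dose or a duration. The series concerns the retinoblastoma protein RB, the transcription factor ETS1 and the response of such cells to CDK4/6 inhibition. No label names the protein that the antibody recognised, so no signal below can be assigned to a factor.

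In each library the summits within 1000 bp of either end of a gene, called gene-end summits, were taken from the deposited list. Where a gene had none, the interval over the gene was taken with its summit and the distance of that summit. The members were selected on measured values, the gene-end summits of these 4 libraries, so which genes carry one, and how often, is a description with no test. Nothing in the lists shows how far the siRNA lowered RB, since they hold binding signal and no RNA or protein level.

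DNA replication begins when a ring of the MCM proteins is loaded onto origins of replication. CDC45 and the GINS complex then join the ring and turn it into the active helicase, with MCM10 acting at this step. Behind the fork, the clamp loader RFC places the sliding clamp PCNA on DNA, PCNA holds the polymerases on their template, and DNA ligase I, the product of LIG1, seals the fragments of the lagging strand. Many of these genes are textbook targets of the E2F transcription factors, which RB binds and restrains until CDK4 and CDK6 phosphorylate it. The label of E2F target therefore comes from general knowledge of these genes and was not tested by these libraries.

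Promoter letters were available for 9 of the 10 genes, from RefSeq on GRCh38.p14, with MCM4 as the gene with no entry. Each promoter ran from 250 bases before to 50 bases after the listed start site. The E2F site was searched as TTTCCCGC or TTTGGCGC, and as TTTCGCGC or TTTGCCGC, on both strands. The letters CCGGAAG stood for an ETS site, the kind of element that ETS1 reads. The CCAAT box was searched by the letters of its name, and the other promoter element, the GC box, by the letters GGGCGG. An E2F match was present in 6 of the 9 promoters, those of MCM2, MCM3, MCM7, GINS2, LIG1 and PCNA, while 4.44% of 15842 protein-coding promoters held one. The form TTTCCCGC was present in 5 of them, MCM3, MCM7, GINS2, LIG1 and PCNA, against 2.18% of all promoters. The form TTTCGCGC was present in MCM2, MCM3 and MCM7, against 0.814% of all promoters. The form TTTGGCGC was in 0 of the 9 and in 0.89% of all promoters, and TTTGCCGC was in 0 of the 9 and in 0.713%. The 10 genes were grouped under the label of E2F target, so a high share of E2F matches could be foreseen. These shares describe the promoters and are no test of that label. A match is a description of the letters and not a bound site.

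The 250 bases before the start site are shown for the 5 genes with TTTCCCGC and for RFC4, whose promoter held ETS matches and no E2F match. Capitals mark E2F, ETS and CCAAT matches on either strand, GC boxes are left unmarked, and a match that runs past the start site is shown up to it. All 6 genes lie on the minus strand, and each run reads 5′ to 3′ towards the gene: PCNA at chr20:5126623-5126872, LIG1 at chr19:48170345-48170594, GINS2 at chr16:85688955-85689204, MCM3 at chr6:52284743-52284992, MCM7 at chr7:100101398-100101647 and RFC4 at chr3:186806483-186806732.
PCNA: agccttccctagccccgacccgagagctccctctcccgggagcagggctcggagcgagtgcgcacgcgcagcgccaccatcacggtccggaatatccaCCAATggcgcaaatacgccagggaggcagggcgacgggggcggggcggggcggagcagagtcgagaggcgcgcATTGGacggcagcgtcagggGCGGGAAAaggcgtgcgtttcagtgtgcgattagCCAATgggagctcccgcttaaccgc
LIG1: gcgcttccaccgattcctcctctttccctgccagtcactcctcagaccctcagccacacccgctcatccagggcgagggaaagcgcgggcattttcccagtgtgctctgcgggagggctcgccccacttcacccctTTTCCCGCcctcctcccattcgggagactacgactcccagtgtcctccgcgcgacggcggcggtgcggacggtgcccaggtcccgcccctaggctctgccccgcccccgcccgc
GINS2: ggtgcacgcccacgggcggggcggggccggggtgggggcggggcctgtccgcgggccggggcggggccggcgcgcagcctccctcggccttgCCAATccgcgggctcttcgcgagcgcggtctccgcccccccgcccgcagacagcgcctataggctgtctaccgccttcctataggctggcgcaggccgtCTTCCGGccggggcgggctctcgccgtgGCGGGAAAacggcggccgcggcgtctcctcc
MCM3: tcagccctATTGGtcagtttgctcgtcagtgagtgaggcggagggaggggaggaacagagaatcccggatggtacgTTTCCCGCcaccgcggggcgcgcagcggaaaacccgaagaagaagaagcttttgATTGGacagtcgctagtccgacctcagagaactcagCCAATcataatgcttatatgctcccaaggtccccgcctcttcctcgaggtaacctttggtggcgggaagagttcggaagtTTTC
MCM7: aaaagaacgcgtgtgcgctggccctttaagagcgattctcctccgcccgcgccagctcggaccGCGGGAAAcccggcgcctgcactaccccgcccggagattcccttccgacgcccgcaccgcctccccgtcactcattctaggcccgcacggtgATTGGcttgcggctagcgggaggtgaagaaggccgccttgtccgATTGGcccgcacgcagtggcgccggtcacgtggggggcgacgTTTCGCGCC
RFC4: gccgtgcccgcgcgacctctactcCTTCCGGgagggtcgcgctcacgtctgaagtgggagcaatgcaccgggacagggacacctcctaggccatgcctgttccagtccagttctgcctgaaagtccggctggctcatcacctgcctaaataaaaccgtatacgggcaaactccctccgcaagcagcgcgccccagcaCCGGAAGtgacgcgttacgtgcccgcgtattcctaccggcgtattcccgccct

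In the PCNA run the E2F match lay at −59 to −52 from the start site and overlapped a GC box, with CCAAT boxes on both sides of it. In the LIG1 run it lay at −114 to −107 and also overlapped a GC box. In the GINS2 run it lay at −31 to −24, and an ETS match lay at −59 to −53. MCM3 and MCM7 held a pair of E2F matches each. The nearer one ran across the start site at MCM3 and lay just before it, at −9 to −2, at MCM7. MCM2, not printed, held a pair of overlapping E2F matches within the first 14 bases after its start. RFC4 held ETS matches at −226 to −220 and at −53 to −47, and with GINS2 made 2 of the 9 promoters with an ETS match, against 14.2% of all promoters. A CCAAT box was in 6 of the 9 promoters, against 36.4% of all, and a GC box in 8 of the 9, all but MCM3, against 58.5%. Both of these short motifs are common, and GC content was not matched between the 9 promoters and the rest. GC content ranged from 57.3% at MCM3 to 78.3% at GINS2 over the 9 promoters, beside a median of 62.7% over all promoters. The letters searched at CDC45 belong to a start site further into the gene than the 5′ end used for distances, so its summits lay before the searched window.

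Levels are given as recovered fragments at a summit per 1000000 fragments of the library (FPM), with an exact 95% Poisson interval that covers counting error only. The libraries held 1909343 fragments under PD0332991 and 2458774 in its control, and 2423283 after RB siRNA and 3479671 in control siRNA. The lists held 3206 intervals under PD0332991 and 9720 in its control, and 2553 after RB siRNA and 10412 in control siRNA, on chromosomes 1 to 22, X and Y. Median interval widths were 557.5 kb under PD0332991 and 189.3 kb in its control, and 718.3 kb after RB siRNA and 179.7 kb in control siRNA. Each list thus names 1 summit for a long stretch of chromosome, and the lists of both treated libraries name fewer than those of their controls. The summit stands at the highest signal of its interval, so a gene without a summit of its own in a covered stretch has a level at or below that of the summit listed there. Such values are called upper limits below. Of 12 prostate luminal markers, 2 had a gene-end summit under PD0332991 and 0 in its control, 1 after RB siRNA and 2 in control siRNA. KLK3 was among those with none in any library, and 0 of 3 basal, 0 of 7 blood and endothelial and 0 of 2 liver markers had one.

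A gene-end summit was present at 1 of the 10 replication genes under PD0332991 and at 6 of 10 in its control. It was present at 2 of 10 after RB siRNA and at 5 of 10 in control siRNA. Over all protein-coding genes, 7.73% had one under PD0332991 and 16.8% in its control, and 6.63% after RB siRNA and 17.3% in control siRNA. Nothing is read from the members' counts against these shares, since the summits chose the members. The treated libraries listed fewer gene-end summits for genes in general, and the part of list length in the members' counts was not tested. Of the 40 combinations of gene and library, 14 had a gene-end summit, 25 were covered by an interval whose summit lay elsewhere, and 1, RFC4 under PD0332991, fell in a gap of the list. PCNA, MCM7, CDC45 and LIG1 had a gene-end summit in 2 libraries each, the other 6 genes in 1 library, and 0 genes in 3 or more.

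Within the 14 gene-end summits, levels ran from 1.72 to 28.5 FPM with a median of 12.6 FPM, and 10 of the 14 reached 5 FPM. They lay 2 to 448 bp from the gene end, with a median of 112 bp. The nearest listed summit outside the 1000 bp threshold lay 1729 bp before GINS2 in the PD0332991 control, with 3.66 FPM (1.67 to 6.95, 9 fragments), in an interval next to the one that covers the gene. The next nearest lay inside PCNA, 4823 bp from a gene end, and is described with that gene. For 13 of the 14 the strand of the gene was known, and all 13 lay nearer the 5′ end. Over all genes with a gene-end summit and a known strand, between 95% and 96.8% were nearer the 5′ end in the 4 libraries, so this placement is common to genes in general. The authors' fold over background ran from 1.06 to 1.73 at the 14 summits. It includes a pseudocount of 1, while each fragment adds from 0.00315 (RB siRNA) to 0.0141 (PD0332991 control). The fold therefore stays near 1 and is not comparable between libraries. At LIG1 it was 1.22 after RB siRNA and 1.51 in control siRNA, the reverse of the order in FPM. All 14 had a deposited −log10 q of 0. Over all intervals a −log10 q of 0 was listed for 97.5% under PD0332991 and 96.1% in its control, and for 98.5% after RB siRNA and 98.1% in control siRNA, so this value does not set the 14 apart.

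**Figure D1:**
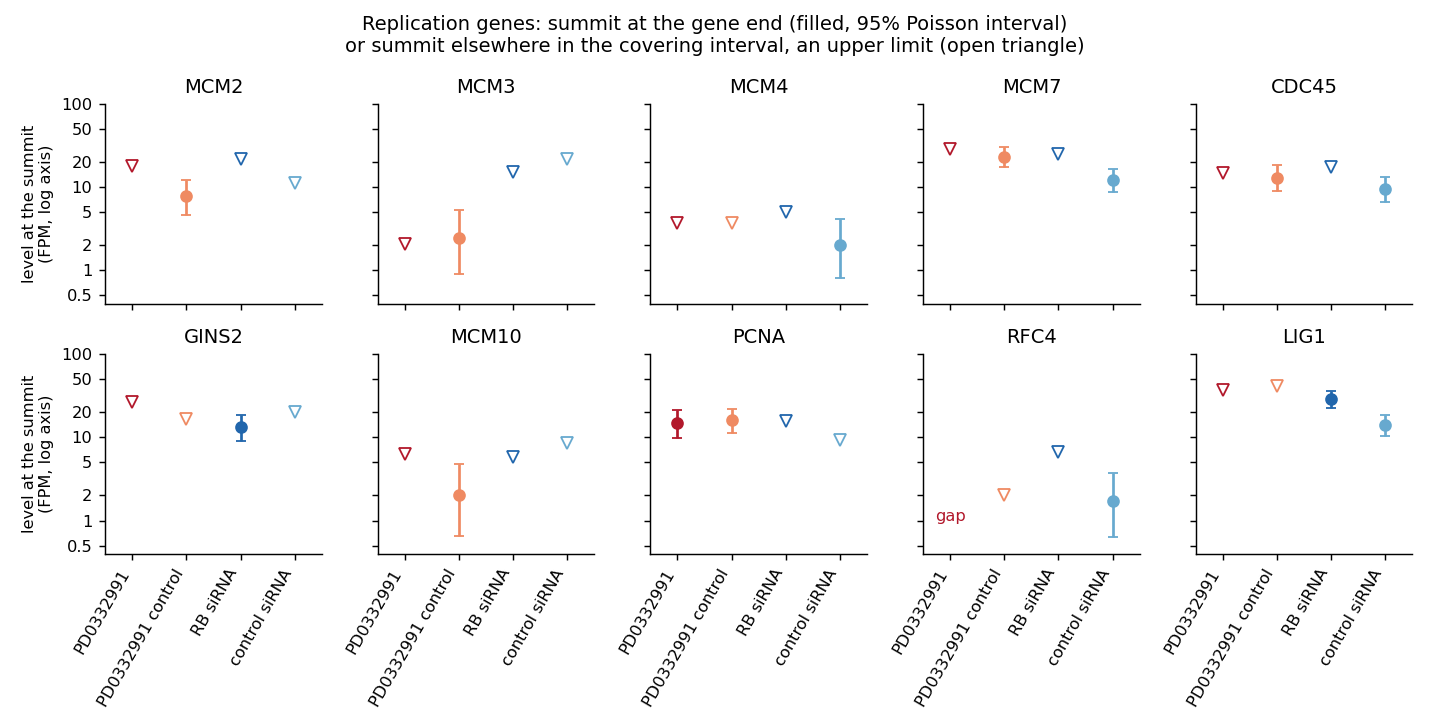
Level at the summit for each of the 10 replication genes, in FPM on a log axis, with 1 panel per gene and 1 position per library. Filled circles are gene-end summits with their 95% Poisson interval, and open triangles are summits elsewhere in the interval that covers the gene, which bound the level at the gene from above. PCNA alone has a filled circle under PD0332991 (14.7 FPM), and LIG1 has the highest filled circle, 28.5 FPM after RB siRNA.

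MCM2, a subunit of the replicative helicase ring (chr3:127598411-127622436, plus strand), had a gene-end summit in the PD0332991 control alone. That summit held 7.73 FPM (4.65 to 12.1, 19 fragments) and lay 141 bp before the start of the gene and 39 bp from the 5′ end of TPRA1, its divergent neighbour. The upper limit at MCM2 was 17.8 FPM under PD0332991, 21.9 FPM after RB siRNA and 11.2 FPM in control siRNA. All 3 limits lay above the level in the PD0332991 control, so the lists do not show whether the other 3 libraries had less signal at MCM2.

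MCM3, another subunit of the ring (chr6:52264015-52284742, minus strand), also had its summit in the PD0332991 control alone, 208 bp before the gene. Its level was 2.44 FPM (0.896 to 5.31), which rested on 6 fragments. Under PD0332991 the upper limit was 2.09 FPM, from a covering summit of 4 fragments. The log2 ratio of that limit to the control level was −0.22, with a 95% interval from −2.49 to 1.86, so the counts were too few to separate the 2 libraries. The upper limits of 15.3 FPM after RB siRNA and 21.8 FPM in control siRNA both came from summits in TRAM2, about 219 kb and 220 kb away.

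MCM4, a subunit of the ring whose gene stands head to head with PRKDC (chr8:47960941-47978160), had a summit in control siRNA alone. It held 2.01 FPM (0.809 to 4.14, 7 fragments) at 126 bp before the start of MCM4 and 679 bp from the end of PRKDC. Upper limits were 3.67 FPM under PD0332991 and 3.66 FPM in its control, and 4.95 FPM after RB siRNA. At this depth the gene cannot be ordered across the libraries.

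MCM7, the ring subunit whose gene overlaps the start of AP4M1 (chr7:100092728-100101397, minus strand), had summits in both control libraries. The PD0332991 control held 23.2 FPM (17.6 to 30.0, 57 fragments) at 448 bp inside MCM7 and 155 bp inside AP4M1. Control siRNA held 12.1 FPM (8.70 to 16.3, 42 fragments) at 277 bp before MCM7. The summits lay too far apart to be matched, on opposite sides of the start of MCM7, and no ratio was formed from them. The upper limit was 28.8 FPM under PD0332991, from a summit 18.1 kb away at the start of CNPY4, and 24.8 FPM after RB siRNA, from a summit at ZKSCAN5. Both limits lie above the levels in the control libraries.

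CDC45, the helicase activator (chr22:19479466-19520612, plus strand), had the summits closest to a gene end, 3 bp before the start in the PD0332991 control and 2 bp before it in control siRNA. The level was 13.0 FPM (8.90 to 18.4, 32 fragments) in the PD0332991 control and 9.48 FPM (6.53 to 13.3, 33 fragments) in control siRNA. The summits lay 270 bp and 271 bp from the neighbouring end of UFD1. Upper limits were 14.7 FPM under PD0332991, from a summit at TRMT2A 638 kb away, and 17.3 FPM after RB siRNA, from a summit at DGCR2 357 kb away. Each limit exceeded the level in its own control, so the lists do not order CDC45 within either pair.

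GINS2, a subunit of the GINS complex (chr16:85676198-85688954, minus strand), had its summit after RB siRNA alone. The level was 13.2 FPM (9.03 to 18.6, 32 fragments) at 164 bp before the gene, within the 250 bases printed above, and 225 bp from a long non-coding RNA gene, LOC124903740. The upper limits were 26.7 FPM under PD0332991 and 16.7 FPM in its control, and 20.1 FPM in control siRNA. All 3 came from summits inside GSE1, 35.8 to 76.9 kb from the start of GINS2, and all 3 lay above the level after RB siRNA. A summit of the same height at GINS2 could be present in those libraries and go unlisted.

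MCM10, which acts as the helicase is activated (chr10:13161558-13211110, plus strand), had a summit in the PD0332991 control alone. It held 2.03 FPM (0.66 to 4.75, 5 fragments) at 17 bp inside the gene. The other 3 libraries were covered by summits in CAMK1D about 386 kb away, with limits of 6.28 FPM under PD0332991, 5.78 FPM after RB siRNA and 8.62 FPM in control siRNA. With 5 fragments at its only summit, MCM10 was among the lowest gene-end summits of that library.

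PCNA, the sliding clamp (chr20:5114953-5126622, minus strand), was the gene with a gene-end summit under PD0332991. The level was 14.7 FPM (9.74 to 21.2, 28 fragments) under PD0332991 and 15.9 FPM (11.3 to 21.7, 39 fragments) in its control. Both summits lay in the stretch between PCNA and CDS2, a gene that starts on the other strand. The PD0332991 summit lay 310 bp before PCNA and 76 bp before CDS2. The summit of its control lay 99 bp before PCNA, within the printed run, and 287 bp before CDS2. The lists do not say which of the 2 genes the signal belongs to.

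A different summit inside PCNA was listed in 3 libraries, far from the promoter. After RB siRNA and in control siRNA it fell at the same base, 6636 bp into the gene and 17 bp past the end of the antisense transcript gene PCNA-AS1. Its level was 15.7 FPM (11.1 to 21.5, 38 fragments) after RB siRNA and 9.20 FPM (6.29 to 13.0, 32 fragments) in control siRNA. In the PD0332991 control a second interval listed a summit 6846 bp into the gene with 18.3 FPM (13.3 to 24.5, 45 fragments). The Poisson intervals of the internal and the promoter summit overlapped in that library. In the siRNA pair the internal summit bounds the promoter level from above.

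RFC4, a subunit of the clamp loader (chr3:186789900-186806482, minus strand), had the lowest of the 14 summits. Control siRNA held 1.72 FPM (0.633 to 3.75, 6 fragments) at 9 bp before the gene, at the end of the printed run. The PD0332991 control had an upper limit of 2.03 FPM, from a summit at the start of EIF4A2, and RB siRNA one of 6.60 FPM, from a summit between TBCCD1 and DNAJB11. Under PD0332991 no interval covered the gene, so no level or limit exists there.

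LIG1, DNA ligase I (chr19:48115445-48170344, minus strand), had summits in the siRNA pair. The level was 28.5 FPM (22.2 to 36, 69 fragments) after RB siRNA, 38 bp inside the gene, and 14.1 FPM (10.4 to 18.6, 49 fragments) in control siRNA, 22 bp before it. The 2 Poisson intervals do not overlap, with no allowance made here for the median log2 ratio of 0.45 between these libraries. The LIG1 level after RB siRNA was the highest of the 14. ZSWIM9 starts 374 bp from the RB siRNA summit and 314 bp from that of control siRNA. In the inhibitor pair the covering summits were higher still, with limits of 36.7 FPM under PD0332991, at GRIN2D, and 41.1 FPM in its control, at ODAD1.

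**Figure D2:**
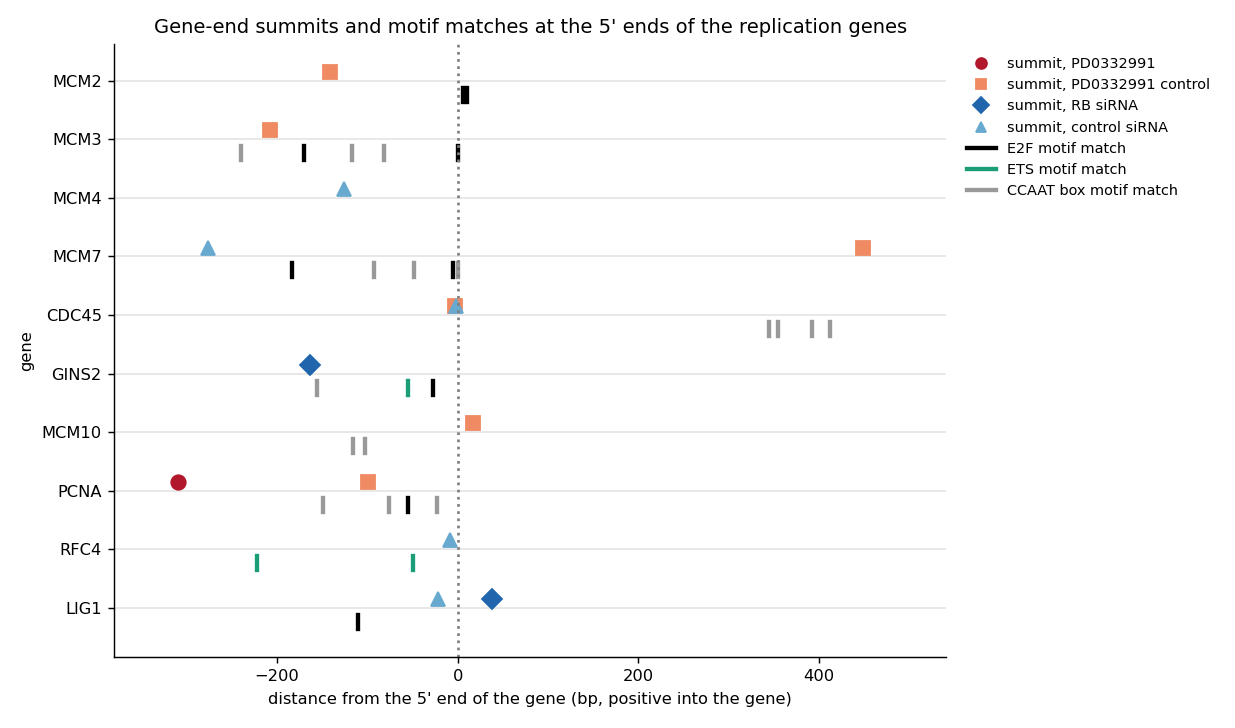
Position of each gene-end summit (colored markers, 1 shape per library) and of E2F, ETS and CCAAT box matches (bars) relative to the 5′ end of each gene, in bp, positive into the gene. For MCM4, which has no promoter entry, the start of the gene is used and no match is drawn. The summits lie from 310 bp before PCNA to 448 bp inside MCM7, 11 of the 14 of them outside the gene.

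Within a library, Poisson intervals of genes next to each other in the order of levels mostly overlapped. In the PD0332991 control, MCM7 (23.2 FPM) was followed by PCNA (15.9 FPM), CDC45 (13.0 FPM), MCM2 (7.73 FPM), MCM3 (2.44 FPM) and MCM10 (2.03 FPM). Each interval in that order overlapped the next, that of MCM2 and MCM3 only between 4.65 and 5.31 FPM. In control siRNA the order was LIG1 (14.1 FPM), MCM7 (12.1 FPM), CDC45 (9.48 FPM), MCM4 (2.01 FPM) and RFC4 (1.72 FPM). There the interval of CDC45 lay wholly above that of MCM4, and the other neighbours overlapped. Among all genes with a gene-end summit, 88.4% lay below MCM7 in the PD0332991 control and 85.9% in control siRNA, whereas 11.8% lay below MCM10 and 14.2% below RFC4 in the library of their summit. The members' summits in both control libraries thus differed widely in rank instead of sitting at one height.

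Several of these genes shared a summit with a neighbour. Another protein-coding gene had an end within 1000 bp of the summit at 6 of the 10, namely MCM2 with TPRA1, MCM4 with PRKDC, MCM7 with AP4M1, CDC45 with UFD1, PCNA with CDS2 and LIG1 with ZSWIM9. MCM3, GINS2, MCM10 and RFC4 had none. Over all genes with a gene-end summit the share was 32.9% under PD0332991 and 31.3% in its control, and 32.8% after RB siRNA and 29.7% in control siRNA. Those shares count, within a library, genes whose highest gene-end summit is also that of another gene. The 6 of 10 pools the libraries, and the summits chose the members, so it is not set against them. Counted by summit, 10 of the 14 were shared, and the level there cannot be assigned to the replication gene and not its neighbour.

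The comparison of PD0332991 with its control asks how blocking CDK4/6 alters the signal. A summit of one library was matched to its mutual nearest summit in the other, up to 250 bp away, where their geometric mean reached 5 FPM. Of 887 matched summits, 150 (16.9%) had a ratio whose 95% interval excluded the median log2 ratio of 0.20, 82 above it and 68 below. PCNA was the 1 replication gene with a matched gene-end summit, and it was within counting error: the log2 ratio was −0.11 (−0.87 to 0.62), or −0.31 relative to the median, at summits 211 bp apart. At MCM2, MCM7, CDC45 and MCM10 the control alone had a summit, and the limit under PD0332991 was as high or higher. At MCM3 the limit was lower, as given above. MCM4, GINS2, RFC4 and LIG1 had a gene-end summit in neither library. At 0 of the 10 genes do these lists show a lower level under PD0332991 beyond counting error, although the control listed 6 gene-end summits and the treated library 1. Only PCNA and MCM3 could have shown a lower level, MCM3 with few fragments. For the other genes the lists cannot decide, and no conclusion is drawn.

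The comparison of RB siRNA with control siRNA asks how loss of RB alters the signal. Of 749 matched summits, 100 (13.4%) lay beyond counting error from the median log2 ratio of 0.45, 57 above it and 43 below. LIG1 was the 1 replication gene with a matched gene-end summit, and its level was higher after RB siRNA: the log2 ratio was 1.02 (0.47 to 1.57) at summits 60 bp apart. Relative to the median it was 0.57 (0.02 to 1.13), so the call rests on a lower bound just above 0, and 92.8% of matched summits had a lower ratio. With 1 library per group and a share of 13.4% called over all matched summits, the LIG1 value describes these 2 libraries and not the effect of the siRNA. The internal summit of PCNA had a log2 ratio of 0.77 (0.05 to 1.5), within counting error of the median. At MCM4, MCM7, CDC45 and RFC4 control siRNA alone had a gene-end summit and the limit after RB siRNA was higher, and at GINS2 the reverse held. MCM2, MCM3, MCM10 and PCNA had a gene-end summit in neither.

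The 2 control libraries, controls of different treatments, were compared to see how far cells without inhibitor or RB siRNA lie apart. Of 1191 matched summits, 242 (20.3%) lay beyond counting error from the median log2 ratio of 0.59 for the PD0332991 control over control siRNA, 142 above it and 100 below. This share exceeds that of either treatment pair, so calls of this kind arise between control libraries as well. The share also depends on fragment numbers and on the summits matched, which differ between the pairs, so its size is not strictly comparable. CDC45 was the 1 replication gene matched, with a log2 ratio of 0.46 (−0.29 to 1.20), or −0.13 relative to the median, at summits 1 bp apart. At PCNA, where control siRNA had no gene-end summit, its limit of 9.20 FPM lay below the 15.9 FPM of the PD0332991 control. The log2 ratio of that limit to the PD0332991 control level was −0.79 (−1.51 to −0.07), on a scale where the typical matched summit was also lower in control siRNA. The internal summit of PCNA had a log2 ratio of 0.99 (0.31 to 1.69), within counting error of the median.

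**Figure D3:**
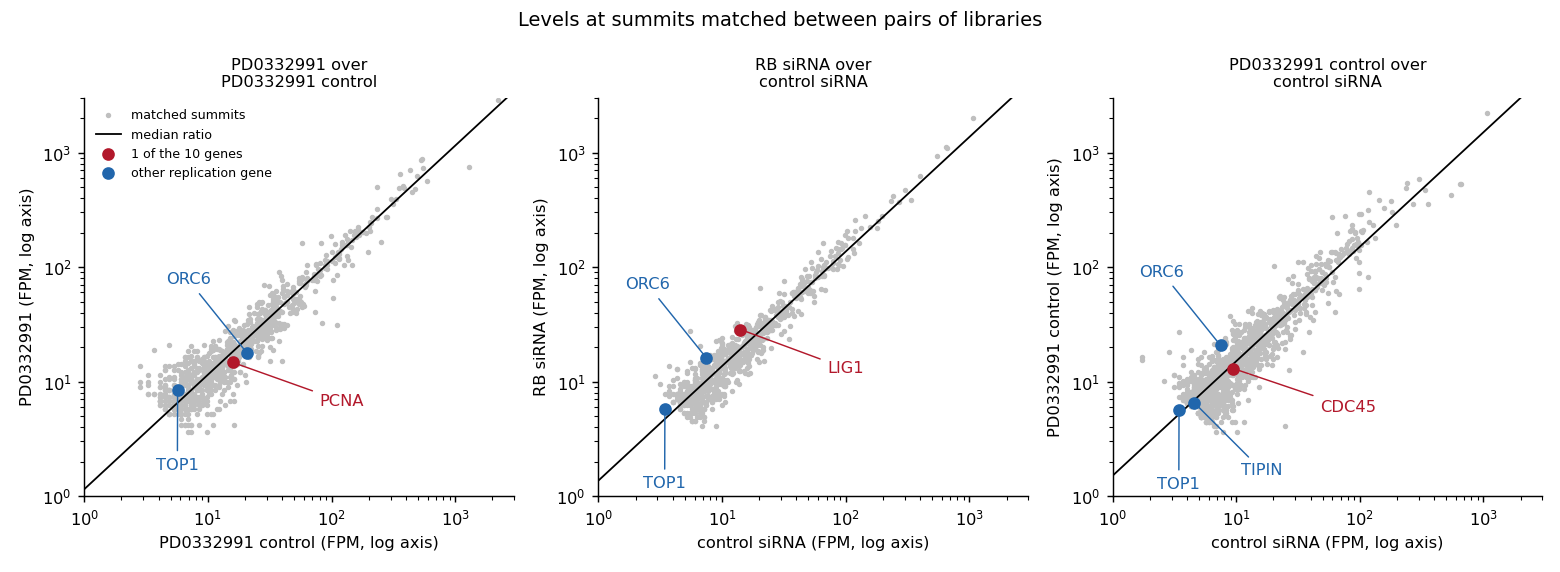
Levels at summits matched between pairs of libraries, in FPM on log axes, with the first-named library of each pair on the vertical axis. Gray points are matched summits, the line is the median ratio, red points are the replication genes examined here and blue points other replication genes. PCNA (14.7 and 15.9 FPM) and CDC45 (13.0 and 9.48 FPM) lie close to the line, and LIG1 (28.5 and 14.1 FPM) lies above it.

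The wider replication machinery was read from a list of 72 genes, of which 62 are outside the 10. Among these 62, 4 (6.45%) had a gene-end summit under PD0332991 and 6 (9.68%) in its control, and 3 (4.84%) after RB siRNA and 12 (19.4%) in control siRNA. Taking out 10 genes chosen for their summits lowers these shares, so they are not set against those over all genes. Over all 72 genes the share was 6.94% under PD0332991 and 16.7% in its control, and 6.94% after RB siRNA and 23.6% in control siRNA. The shares over all protein-coding genes are given above, and no difference from them was tested. A total of 47 of the 62 had no gene-end summit in any library. The 10 genes examined here were chosen for theirs, so their counts cannot be set against the 62.

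ORC6, a subunit of the complex that marks origins, had a gene-end summit in all 4 libraries, shared with VPS35. It held 17.8 FPM under PD0332991 and 20.7 FPM in its control, and 16.1 FPM after RB siRNA and 7.47 FPM in control siRNA. Control siRNA was the low library, and its Poisson interval did not overlap those of the other 3. The log2 ratio was −0.22 (−0.89 to 0.43) for PD0332991 over its control and 1.11 (0.35 to 1.88) for RB siRNA over control siRNA, both within counting error of their medians. It was 1.47 (0.76 to 2.21) for the PD0332991 control over control siRNA, above the median of 0.59.

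TOP1, the topoisomerase that relieves the twist ahead of the fork, also had a summit in all 4 libraries, with 8.38 FPM under PD0332991 and 5.69 FPM in its control, and 5.78 FPM after RB siRNA and 3.45 FPM in control siRNA. Its 3 ratios lay within counting error of the medians, those against control siRNA from pairs under the 5 FPM minimum. MCM8, a helicase related to the MCM ring, had 4.71 FPM under PD0332991 and 1.72 FPM in control siRNA. DBF4, the activating partner of the kinase CDC7, had 5.24 FPM under PD0332991 and 7.47 FPM in control siRNA. Both genes lacked a gene-end summit in the PD0332991 control and after RB siRNA, so no pair of libraries gives a ratio for them.

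CHTF18, part of an alternative clamp loader, had 25.2 FPM in the PD0332991 control and 18.4 FPM in control siRNA, but at opposite ends of the gene. TIPIN, a factor that steadies the fork, had 6.51 FPM in the PD0332991 control and 4.60 FPM in control siRNA, with a log2 ratio of 0.50 (−0.59 to 1.60) that was within counting error of the median. Of these 6 genes, ORC6 and TOP1 had a gene-end summit both under PD0332991 and in its control. MCM8 and DBF4 had one under PD0332991 but not in its control, and CHTF18 and TIPIN the reverse. The highest summit over the gene in that control held 3.66 FPM at MCM8 and 2.85 FPM at DBF4. Each value lay within the Poisson interval of the gene's level under PD0332991, 2.16 to 8.95 FPM at MCM8 and 2.51 to 9.63 FPM at DBF4.

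**Figure D4:**
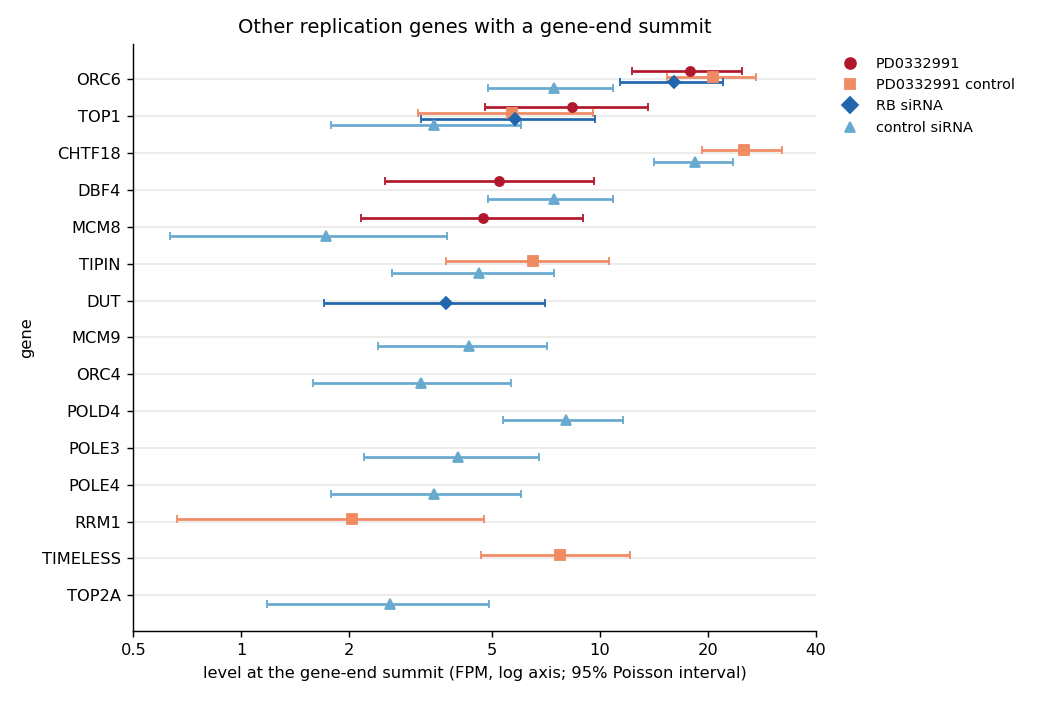
Level at the gene-end summit of each of the 15 other replication genes that had one, in FPM on a log axis, with 95% Poisson intervals and 1 marker shape per library. ORC6 and TOP1 have 4 points each, and 9 genes have a single point.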

How the data were processed

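Reads were handled with bcl2fastq 2.17, Trimmomatic 0.33, Bowtie2 (version given as 2) and MACS2 2.1.0 on hg38, per the submitters' processing notes. Tool settings are not given in the sources used here. The labels' protocols describe fixed, sonicated chromatin. Each deposited list covers a single library, and those of the siRNA pair, at 9 columns, lack the name column that makes 10 in the others. The score, the fold over background (a ratio) and the −log10 p and −log10 q of each summit are the authors' deposited values. Because the deposited fold stays low, the −log10 p of most member summits is set by the background level and not by summit height.

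The number of treatment fragments at each summit was solved from the deposited fold and −log10 p, with a pseudocount of 1 and the Poisson upper tail that MACS2 uses. It was whole within 0.05 for 99.99% to 100% of summits in the 4 lists. Fragment lengths of 174.3 to 203.8 bp assume a local window of 10000 bp, and library totals also assume an effective genome of 2.7 Gb. One fragment equals 0.524 FPM under PD0332991 and 0.407 FPM in its control, and 0.413 FPM after RB siRNA and 0.287 FPM in control siRNA. Ratios carry exact conditional 95% intervals and compare libraries, not conditions. With 1 library per group no p-value was computed. Fragments may include PCR copies, so intervals cover counting error only. The solving step was tested on simulated data.

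Gene ends came from RefSeq on GRCh38. Summits were matched within 250 bp at a geometric mean of at least 5 FPM. The members, the pathway list and the marker list were chosen with earlier results of these data known. Genes named are all members, pathway genes with a gene-end summit in at least 2 libraries, and genes sharing a member's summit. A further rule, for genes most like a member, needed a gene-end summit in 3 libraries and named 0 genes. Genes at covering summits were named after their values were seen. Python 3.11.15, numpy 2.4.6, pandas 2.3.3, scipy 1.17.1 and matplotlib 3.10.9 were used.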

Additional observations from a re-analysis of the deposited data

How the results depend on the processing

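Counts of gene-end summits stayed within 1.5 times at distances of 500 and 2500 bp, for the 10 genes and for the 72 pathway genes in all 4 libraries. Requiring a deposited −log10 q of at least 2 left 0 genes of either list in every library. Counting any interval over the gene gave 9 of the 10 genes under PD0332991 and 10 in its control, and 10 after RB siRNA and 10 in control siRNA. For the 72 pathway genes it gave 71 under PD0332991 and 72 in its control, and 71 after RB siRNA and 72 in control siRNA, because the intervals cover nearly the whole genome. A minimum of 5 FPM gave 3 of the 10 genes and 7 of the 72 in control siRNA, against 5 and 17 without it. The ratios of PCNA, LIG1 and CDC45 kept their side of the median and their call under each alternative that gave a value: matching within 100 or 500 bp, both scalings to shared summits, covering summits as limits, and 1 fragment length for both libraries, an alternative added after seeing the data. Most of these could hardly alter a call. Scaling to the pair's shared summits and 1 fragment length move the ratio and the median alike. The matching distance left the ratios themselves unchanged, and covering summits left LIG1 and CDC45 at the same summits. The LIG1 call, with a lower bound of 0.02 relative to the median, is therefore little checked by them. The CDC45 log2 ratio, 0.46, turned to −0.13 and −0.17 under the scalings to summits shared by the pair and by all 4 libraries, with intervals that include 0 throughout. Matching within 100 bp gave no value for PCNA. With 1 fragment length the LIG1 log2 ratio was 0.79 (0.24 to 1.35), against a median of 0.22. No paired analysis was possible because each group holds 1 library and the labels carry no replicate numbers. For the same reason no library could be left out. Few fragments limit MCM3, MCM4, MCM10 and RFC4, and wide intervals hide summits lower than the one listed.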

Other observations

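Several covering summits recurred at nearly the same base in different libraries, and were picked out after their values were seen. The summit that covered MCM2 lay at position 128153348 of chromosome 3 under PD0332991 and at 128153345 after RB siRNA, just inside the 5′ end of RUVBL1 and next to that of EEFSEC. It held 17.8 FPM under PD0332991 and 21.9 FPM after RB siRNA. RUVBL1 encodes an ATPase of chromatin remodelling complexes, and EEFSEC an elongation factor for selenoproteins. Summits in CAMK1D, a calcium-dependent kinase gene, covered MCM10 in 3 libraries, and summits in TRAM2 covered MCM3 in both siRNA libraries.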
